A study of Mus musculus with 6 samples.

Results

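The 10 genes described here encode the heat shock transcription factor HSF1 and chaperones of the cytosol and mitochondria: Hsf1, Hsph1, Hspa8, Hsp90aa1, Hsp90ab1, Dnaja1, Dnajb1, Cryab, Hspd1 and Hspe1. They were taken by symbol from a table of 46095 genes, and all 10 had a row. RNA sequencing was done on bone marrow-derived macrophages of C57BL/6 mice aged 56 days, either wild type (WT) or Cd226-/-, which lack the adhesion receptor CD226; the labels give no further detail of the allele. All cultures of both genotypes were grown in M-CSF (20 ng/ml for 7 days), the growth factor that turns marrow precursors into macrophages, and then received IFN-γ (20 ng/ml) with LPS (100 ng/ml) for 24 h, the stimulus used to obtain macrophages of the M1 type. Each genotype had 3 libraries and there was no unstimulated group, so each comparison is between genotypes under the same stimulus. Whether the replicates came from separate mice is not given in the labels, so the p-values refer to the spread among these libraries, and part of that spread may be technical.

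Heat shock proteins keep other proteins folded. HSF1 binds arrays of alternating GAA and TTC units, the heat shock elements, and switches on chaperone genes when unfolded protein accumulates. HSP70-type ATPases such as HSC70 (Hspa8) hold unfolded stretches; J-domain proteins (Dnaja1, Dnajb1) deliver clients and stimulate the ATPase, and HSP110 (Hsph1) exchanges the bound nucleotide. HSP90 (Hsp90aa1 and Hsp90ab1) completes the folding of kinases and receptors. αB-crystallin (Cryab) is a small heat shock protein that holds aggregation-prone clients without ATP, and HSP60 with its lid HSP10 (Hspd1 and Hspe1) forms the folding chamber of the mitochondrial matrix. In macrophages, HSP90 also keeps kinases downstream of Toll-like receptors stable.

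Promoter sequences are shown for the members whose windows hold a match to the units of a heat shock element, because Hspd1 and Hspe1 share 1 such array while only Hspd1 was called different between genotypes. RefSeq's promoter table (GRCm38.p6) has windows from 250 bases before to 50 after a start site for 5 of the 10 members; Hsf1, Hspa8, Hsp90aa1, Hsp90ab1 and Cryab are the others. The motifs searched were TTCNNGAA and GAANNTTC, each its own reverse complement, so that both strands were covered, and the longer arrays TTCNNGAANNTTC and GAANNTTCNNGAA, which overlap with them. Each stretch below is 30 bases, 5′ to 3′ on the strand of the gene, with the match in capitals.
Hspe1, chr1:55088053-55088082, plus strand: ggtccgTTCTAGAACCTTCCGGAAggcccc
Hspd1, chr1:55088053-55088082, minus strand: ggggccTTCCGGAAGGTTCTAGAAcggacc
Hsph1, chr5:149636351-149636380, minus strand: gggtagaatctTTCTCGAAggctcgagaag
Hsph1, chr5:149636287-149636316, minus strand: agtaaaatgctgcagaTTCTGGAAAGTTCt
Dnaja1, chr4:40722333-40722362, plus strand: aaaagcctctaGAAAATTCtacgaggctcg

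The Hspe1 and Hspd1 lines are the same 30 bases read on opposite strands. The 2 genes lie head to head on chromosome 1, with 215 bases between the Hspd1 start at 55087932 and the Hspe1 start at 55088148, and a second listed Hspd1 start at 55088243 lies inside Hspe1. The array in capitals has 4 alternating units over 18 bases. It begins 89 bases upstream of the Hspe1 start and 144 bases upstream of that Hspd1 start, depending on the strand read. Among all 32851 promoter windows of 300 bases, 8 (0.0244%) held an array of that length, and 198 (0.603%) held one of the 13-base arrays. In Hsph1 a match to TTCNNGAA began 33 bases upstream of the start at 149636336, and a match to a 13-base array began 36 bases downstream of it. Dnaja1 had a single pair of units, GAANNTTC, 124 bases upstream of its first start; its other 2 windows held none, and none of the 3 held a 13-base array. A match to either of the 8-base motifs was found in 15.1% of all windows. Neither of the 2 Dnajb1 windows held these letters. A match is a description of the sequence and not evidence that the factor binds there.

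Total counts per library ranged from 16838527 to 21658061, and 13215 genes passed the filter on low counts. Levels are in CPM, counts relative to library size after TMM scaling, on which 1 count was worth 0.0452 to 0.0600 CPM. Cd226 itself had 5 to 23 counts in WT and 8 to 11 in Cd226-/-, too few to check the genotype labels. Macrophage markers were abundant in every library: the 10 markers summed to 18262 to 20227 CPM in WT and 19530 to 20303 CPM in Cd226-/-. Of the 10, 4 were called higher and 4 lower, beside 16.1% and 14.8% of all tested genes. Cd226-/- replicate 1 differed from replicates 2 and 3 by a chi-square over degrees of freedom of 7.61 and 7.76. Cd226-/- replicates 2 and 3 were the most alike pair (2.17, against 3.79 to 7.76 for the other pairs within a genotype). Whether those 2 are independent samples is not given in the labels. Hepatocyte markers were found almost only in Cd226-/- replicates 2 and 3 (8 markers, summing to 23.1 and 24.4 CPM, against 0 to 0.136 in WT and 0.220 in Cd226-/- replicate 1). Of 9 B-cell markers 7 were tested and 6 rose, beside 16.1% of all tested genes. All 9 summed to 18.6 to 20.6 CPM in WT and 42.3 to 54.3 CPM in Cd226-/-. Ighm and Igkc were at 0. The part of these other transcripts in the results below was not tested, and each call on a heat shock gene is also given with replicate 1 left out and with it as the sole Cd226-/- library.

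All 10 heat shock genes passed the filter on low counts. By edgeR's quasi-likelihood test (adjusted p under 0.05), 4 were lower in Cd226-/- (Cryab, Hsph1, Hsf1 and Hspd1), 1 was higher (Dnajb1) and 5 were not called (Hspa8, Hsp90aa1, Hsp90ab1, Dnaja1 and Hspe1). Over all tested genes 30.9% were called in the same fit, 16.1% higher and 14.8% lower, so the 5 of 10 called compare with about 3 of 10 at the background share. The 3 values of one genotype lay wholly apart from the 3 of the other for 7 members (5 lower, 2 higher), against 44.3% of all tested genes (22.3% lower, 22.1% higher). Without Cd226-/- replicate 1, 2 members were higher and 4 lower (all genes: 32.4% called, 17.1% higher and 15.3% lower). With replicate 1 as the sole Cd226-/- library, 1 was higher and 3 lower (all genes: 21.1%, 11.7% and 9.44%), and with scaling by library size 1 was higher and 5 lower (34.3%, 13.4% and 20.9%). The median log2 fold change of the 10 was -0.045, against -0.0045 for all tested genes, and the median absolute log2 fold change was 0.20 in both. The summed level of the 10 genes ranged from 2479 to 2588 CPM in WT and from 2473 to 2561 CPM in Cd226-/-, and the ranges overlapped. The 2 most abundant genes, Hspa8 and Hsp90ab1, made up 69.9% to 70.4% of that sum in WT and 73.3% to 74.1% in Cd226-/-.

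**Figure D1:**
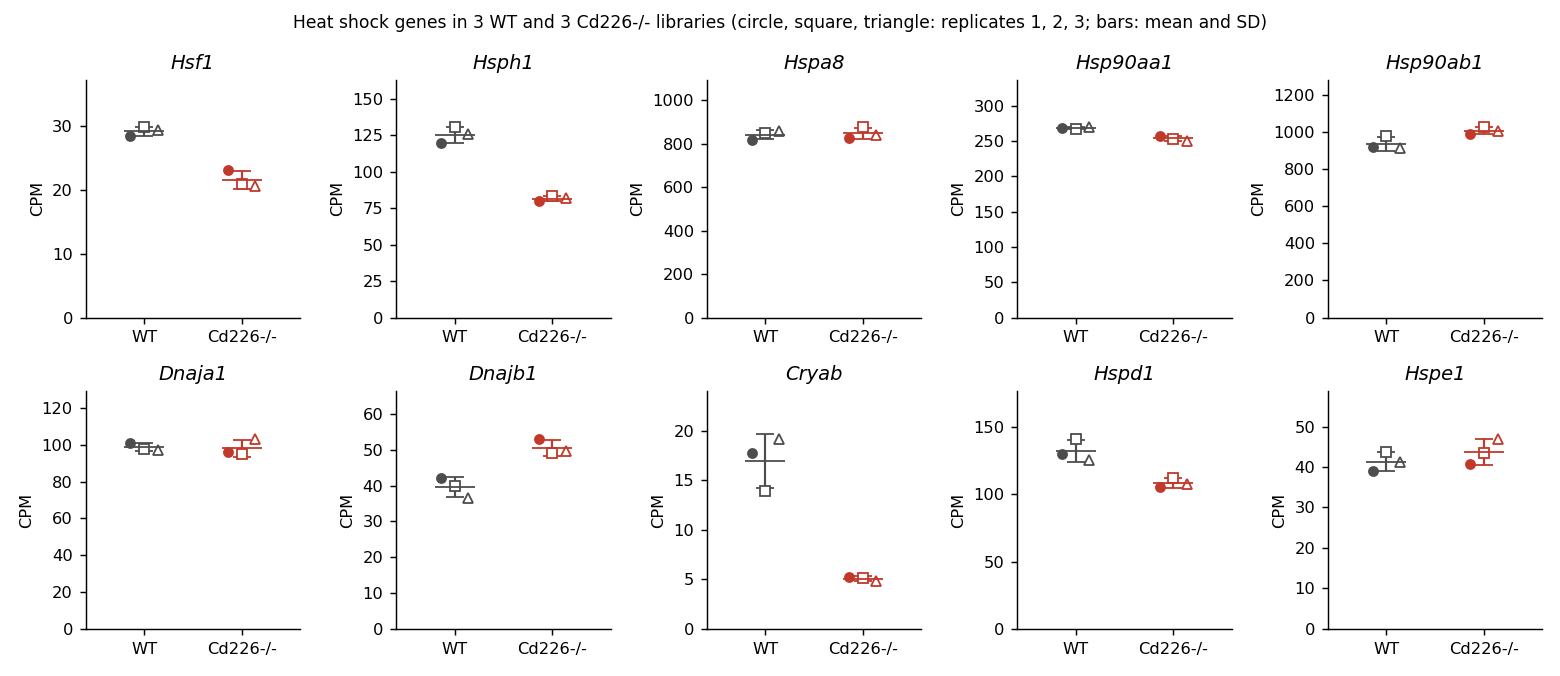
Level of each of the 10 heat shock genes (y axis, CPM, linear from 0) in 3 WT (grey) and 3 Cd226-/- (red) libraries; symbols are replicates 1 to 3, and the horizontal line with caps is the mean ± SD. Cryab, Hsph1, Hsf1 and Hspd1 are lower in all 3 Cd226-/- libraries and Dnajb1 is higher in all 3, while Hspa8, Dnaja1 and Hspe1 overlap between genotypes.

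Hsf1, on chromosome 15 (76477362 to 76501155, GRCm38), encodes the factor that drives the heat shock response. Its level was 28.4, 29.8 and 29.4 CPM in WT replicates 1 to 3 and 23.2, 20.9 and 20.5 CPM in Cd226-/- replicates 1 to 3. Every Cd226-/- library lay below every WT library. The log2 fold change was -0.44 ± 0.084 (SE; adjusted p = 3.38e-04 by edgeR), or 0.737 of the WT level. Without Cd226-/- replicate 1 the log2 fold change was -0.50 (adjusted p = 7.11e-05). With replicate 1 as the sole Cd226-/- library it was -0.33 and above the threshold (adjusted p = 0.0522). The rest of the HSF list, 5 genes of which 3 were tested, had 0 calls in either direction. Hsf2, a second heat shock factor, had log2 fold change 0.12, and Hsbp1, a small protein that binds HSF1, also 0.12 (adjusted p = 0.344 and 0.0629). Without WT replicate 3, 1 gene of this list was called higher, beside 13.1% of all tested genes.

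Hsph1 (chromosome 5, 149616843 to 149636498) encodes HSP110, the exchange factor that releases ADP from HSP70. It measured 120, 130 and 126 CPM in WT and 79.6, 83.1 and 81.7 CPM in Cd226-/-. The genotypes were far apart relative to the spread within each, with means of 125 ± 5.45 and 81.5 ± 1.73 CPM (SD, n = 3). The log2 fold change was -0.62 ± 0.054 (SE; adjusted p = 1.18e-08 by edgeR), which is 0.651 of WT. It was -0.61 without Cd226-/- replicate 1 and -0.65 with replicate 1 alone (adjusted p = 2.97e-10 and 3.28e-09). None of its 50-base words occurs in another annotated transcript of GENCODE, so no annotated copy shares a stretch of that length.

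Hspa8 (chromosome 9, 40801276 to 40805202), the constitutive HSC70 that HSP110 serves, was not called. Its level was 817, 847 and 857 CPM in WT and 826, 875 and 842 CPM in Cd226-/-, and the genotypes overlapped. The log2 fold change was 0.013, with a 95% interval of -0.088 to 0.11 (adjusted p = 0.871). Of its 50-base words 39.4% occur in other annotated transcripts, among them Gm15459 and Gm8355. Added to Hspa8, the counts of these 2 (4.46% of its own) left a log2 fold change of 0.019 (adjusted p = 0.805). Gm26825, which holds 34.0% of the words, had no counts available to add.

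The ratio of Hsph1 to Hspa8 counts within a library does not depend on how libraries are scaled. It was 0.146, 0.154 and 0.147 in WT and 0.0964, 0.0950 and 0.0970 in Cd226-/-. The 2 genotypes did not overlap, and the log2 ratio was lower by 0.63 in Cd226-/- (difference -0.63, exact two-sided permutation p = 0.1, the smallest that 3 against 3 libraries allows; n = 3 per genotype). It was 1 of 3 ratios compared, each with p = 0.1 and an adjusted p of 0.1 by the exact test.

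**Figure D2:**
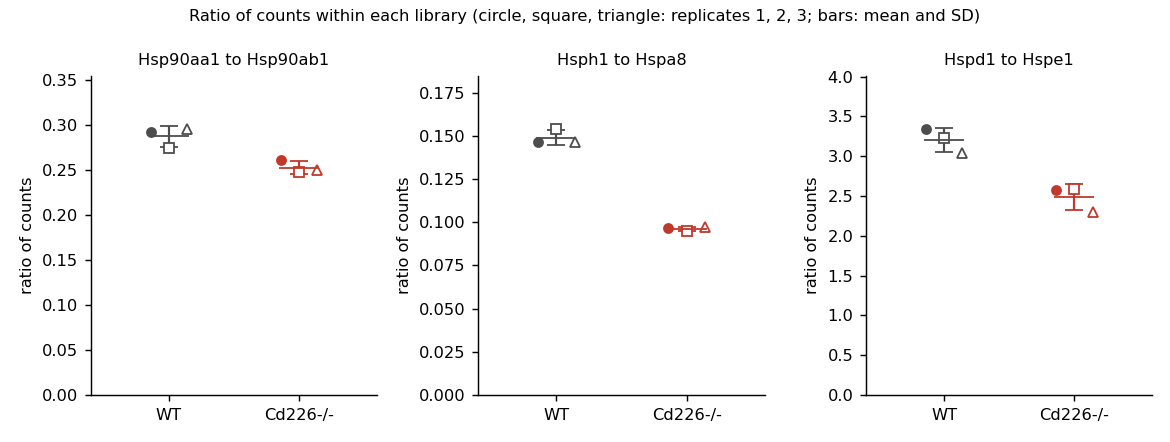
Ratio of counts of 2 genes within each library (y axis, no unit, linear from 0) for Hsp90aa1 to Hsp90ab1, Hsph1 to Hspa8 and Hspd1 to Hspe1; symbols are replicates 1 to 3 and lines with caps the mean ± SD. In each panel the 3 Cd226-/- libraries lie below the 3 WT libraries, and the Hsph1 to Hspa8 ratio differs most in relative terms, from 0.149 ± 0.00431 to 0.0961 ± 0.00104.

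The stress-inducible HSP70 genes Hspa1a and Hspa1b had few counts and were not tested. The WT libraries held 3, 1 and 2 counts of Hspa1a, and the Cd226-/- libraries 8, 5 and 7. For Hspa1b these were 1, 0 and 3 counts, and 0, 5 and 4. Where no count was seen, up to 3 counts (0.136 to 0.180 CPM) are possible from counting error alone. Of the 50-base words of Hspa1a 66.3% occur in other annotated transcripts, mainly of Hspa1b. Both genes also sit on chromosome 17 (34969359 to 34972156 and 34956429 to 34959238) in a stretch where many genes had no counts: of 46 protein-coding genes within 300 kb, 27 were at 0 in all 6 libraries, among them the HSP70 co-chaperone gene Bag6. Tnf, Aif1 and Csnk2b were also at 0, H2-D1 had 20 counts in all, and 3 of the 46 had more than 1000. The few counts of Hspa1a and Hspa1b are therefore not read as low expression. The part of shared sequence and of this stretch in the low counts was not tested.

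In the HSP70 and HSP110 list, 6 genes beyond Hsph1 and Hspa8 were tested: 2 rose and 1 fell. Over all tested genes 16.1% rose and 14.8% fell. Hspa4l, a second HSP110-type exchange factor, rose 1.28-fold, from 138 ± 5.65 to 177 ± 16.9 CPM (SD, n = 3; adjusted p = 1.18e-04 by edgeR), opposite to Hsph1. Hspa2 rose 1.58-fold from a low level (4.68 to 7.43 CPM), and the atypical member Hspa12a fell (log2 fold change -1.09 ± 0.13 (SE), adjusted p = 9.30e-07). Hspa4, a further HSP110-type gene at 177 CPM in WT, had log2 fold change -0.059 (adjusted p = 0.425). Of 6 tested nucleotide exchange co-chaperones of the BAG and HSPBP1 type, 0 were called by edgeR.

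Dnajb1 (chromosome 8, 83608175 to 83612653) encodes HSP40, the J-domain partner of HSP70 in the heat shock response, and was the only one of the 10 genes called higher. Its level was 42.1, 40.0 and 36.5 CPM in WT and 53.1, 49.0 and 49.5 CPM in Cd226-/-. All 3 Cd226-/- values lay above all 3 WT values. It rose 1.28-fold (log2 fold change 0.36 ± 0.070 (SE), adjusted p = 4.91e-04 by edgeR). It was higher by 0.32 on the log2 scale without Cd226-/- replicate 1 and by 0.43 with replicate 1 alone (adjusted p = 0.00128 and 0.00107).

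Dnaja1 (chromosome 4, 40722468 to 40734965), the other J-domain member, was not called. It measured 101, 97.9 and 97.1 CPM in WT and 95.9, 94.9 and 103 CPM in Cd226-/-. The genotypes overlapped, with log2 fold change -0.0098 and a 95% interval of -0.12 to 0.10 (adjusted p = 0.910). Of its 50-base words 20.6% occur in other annotated transcripts. Gm15542 and Gm7816, which share the most, held counts equal to 11.8% of its own. With these 2 added the log2 fold change was -0.0043 (adjusted p = 0.962). Smu1, which holds 6.37% of the words and had 8200 counts, was not added. The antisense gene Gm6297 overlaps its start with 34 counts in all, and without a known strand setting their reads cannot be told apart.

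Among 16 further tested genes of the J-domain list, 2 rose and 4 fell, beside 16.1% and 14.8% of all tested genes. Dnajb5 rose 1.87-fold (4.97 ± 0.540 to 9.34 ± 1.01 CPM (SD, n = 3); adjusted p = 9.74e-05 by edgeR), and Dnajc21 rose 1.17-fold. Dnaja4 fell from 5.81 to 3.46 CPM (log2 fold change -0.75 ± 0.21 (SE), adjusted p = 0.00811), which rose to 0.0597 without WT replicate 2. Dnajb2 fell (log2 fold change -0.27, adjusted p = 0.0217) and missed it without WT replicate 1 (0.0511), WT replicate 3 (0.0578), Cd226-/- replicate 2 (0.0803) or Cd226-/- replicate 3 (0.0777). Dnajc2 and Dnajc13 had adjusted p = 0.0402 and 0.0461. The number that fell was 1 without WT replicate 1 or Cd226-/- replicate 3 and 2 without WT replicate 2, WT replicate 3 or Cd226-/- replicate 2; the number that rose was 1 without any single library other than WT replicate 2.

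Neither cytosolic HSP90 gene was called. Hsp90aa1 (chromosome 12, 110691036 to 110696395), the inducible form, had 268, 268 and 270 CPM in WT and 258, 253 and 251 CPM in Cd226-/-. Its values did not overlap, but the difference was small (log2 fold change -0.081 ± 0.046 (SE), adjusted p = 0.199 by edgeR). Hsp90ab1 (chromosome 17, 45567778 to 45573261), the constitutive form, had 916, 976 and 912 CPM in WT and 986, 1024 and 1003 CPM in Cd226-/-. Its values did not overlap either and lay in the other direction (log2 fold change 0.10 ± 0.049 (SE), adjusted p = 0.115). Without Cd226-/- replicate 1 the adjusted p of Hsp90ab1 was 0.0381. Scaled by library size alone, the adjusted p of Hsp90aa1 was 0.0213 (log2 fold change -0.13).

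The ratio of Hsp90aa1 to Hsp90ab1 counts was 0.293, 0.274 and 0.296 in WT and 0.261, 0.247 and 0.250 in Cd226-/-. The lowest WT value lay above the highest Cd226-/- value, and the mean log2 ratio differed by -0.19 (exact two-sided permutation p = 0.1, n = 3 per genotype). Copies bear unequally on the 2 genes: 47.5% of the 50-base words of Hsp90aa1, but 3.44% of those of Hsp90ab1, occur in other annotated transcripts. With the copies Gm12346, Gm5844 and Gm5511 added (1.66% of its counts), Hsp90aa1 had a log2 fold change of -0.073 (adjusted p = 0.245).

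Of 17 further tested HSP90 co-chaperones, 3 rose and 0 fell, beside 16.1% and 14.8% of all tested genes. Sugt1, an adaptor of HSP90 to NOD-like receptors, rose 1.30-fold (41.0 ± 0.673 to 53.3 ± 0.672 CPM (SD, n = 3); adjusted p = 7.60e-05 by edgeR). Fkbp4, an immunophilin of steroid receptor complexes, rose 1.17-fold (adjusted p = 0.0209) and overlapped between genotypes. It missed the threshold without WT replicate 1 (0.123), WT replicate 3 (0.0653), Cd226-/- replicate 2 (0.150) or Cd226-/- replicate 3 (0.0594). The list had 1 rise without Cd226-/- replicate 2 or replicate 3, beside 13.3% and 13.5% of all tested genes. Stip1, Cdc37, Ahsa1 and Ptges3, the general co-chaperones, were not called (log2 fold changes of 0.080, 0.11, -0.14 and -0.15).

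Cryab (chromosome 9, 50745951 to 50756636) had the largest difference of the 10 genes. αB-crystallin is abundant in lens and muscle and is also made by stressed cells of many kinds. Its level was 17.8, 13.9 and 19.2 CPM in WT and 5.24, 5.16 and 4.79 CPM in Cd226-/-, corresponding to 324, 238 and 425 counts against 95, 86 and 88. The lowest WT library was well above the highest Cd226-/- library. The log2 fold change was -1.75 ± 0.14 (SE; adjusted p = 3.43e-09 by edgeR), or 0.298 of the WT level, and was -1.78 without Cd226-/- replicate 1 and -1.69 with replicate 1 alone (adjusted p = 3.61e-10 and 1.88e-08). Hspb2 overlaps the annotated span of Cryab, holds 13.3% of its 50-base words and had 48 counts over all 6 libraries; 2310030G06Rik, which also overlaps it, had 23.

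The other small heat shock proteins had no call: of 9, 4 were tested, with log2 fold changes of -0.024 to 0.24. Hspb1, encoding HSP27, was counted 19, 24 and 21 times in WT and 21, 14 and 35 times in Cd226-/- (log2 fold change 0.22 ± 0.38 (SE), adjusted p = 0.699 by edgeR). Its level, near 1 CPM in both genotypes, leaves a 95% interval of -0.57 to 1.00.

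Markers of muscle and of fibroblasts and stromal cells were measured beside it; lens markers were not listed. Of 12 muscle markers 5 were tested: 1 rose and 2 fell, beside 16.1% and 14.8% of all tested genes. Des rose (log2 fold change 0.83), Dmpk and Myh11 fell, and Acta2 and Tagln were not called. Actc1, Myl1, Myh1 and Cnn1 were at 0 in all 6 libraries. All 12 summed to 25.7 to 27.2 CPM in WT and 14.9 to 17.9 CPM in Cd226-/-. Dmpk alone fell from 11.1 to 2.05 CPM. Without Dmpk the sum was 14.2 to 16.2 CPM in WT and 13.2 to 15.0 CPM in Cd226-/- and overlapped. Of 15 fibroblast and stromal markers 14 were tested, and none was at 0 in all libraries. Of these 14, 7 rose and 3 fell, beside 16.1% and 14.8% of all tested genes. Higher were Cxcl12, Pdgfrb, Col1a2, Col3a1, Fbn1, Pdgfra and Col1a1, and lower were Ctgf, Col12a1 and Col5a1. The sum of all 15 was higher in Cd226-/- (899 to 937 CPM) than in WT (635 to 727 CPM). The part of these cells in the Cryab difference was not tested. In bulk RNA, fewer cells of a type and less RNA per cell cannot be told apart.

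**Figure D3:**
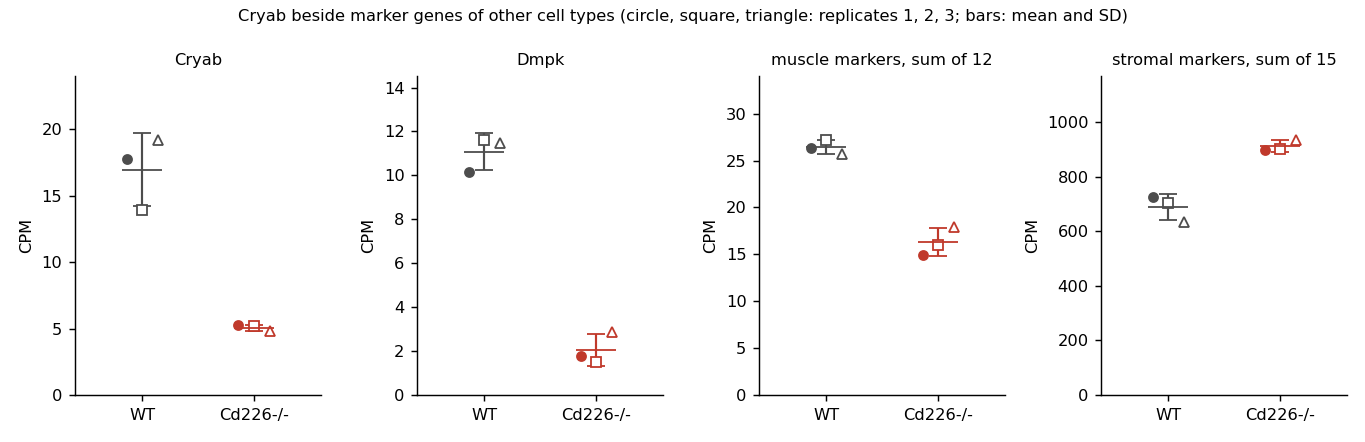
Cryab and Dmpk, the sum of 12 muscle markers and the sum of 15 fibroblast and stromal markers (y axes, CPM, linear from 0) in each library; symbols are replicates 1 to 3 and lines with caps the mean ± SD. Cryab, Dmpk and the muscle sum are lower in all 3 Cd226-/- libraries, and the stromal sum is higher in all 3. Without Dmpk the muscle sum overlapped between genotypes, and Des, another of the 12 muscle markers, was called higher.

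The mitochondrial chaperonin pair split. Hspd1 (chromosome 1, 55077833 to 55088243), encoding HSP60, had 130, 141 and 125 CPM in WT and 105, 112 and 108 CPM in Cd226-/-. All Cd226-/- values were below all WT values (log2 fold change -0.29 ± 0.055 (SE), adjusted p = 4.04e-04 by edgeR), at 0.820 of WT. Hspd1 was at -0.27 on the log2 scale without Cd226-/- replicate 1 and -0.32 with replicate 1 alone (adjusted p = 2.77e-04 and 8.69e-04). Hspe1 (chromosome 1, 55088148 to 55091317), encoding its lid HSP10, had 39.0, 43.8 and 41.2 CPM in WT and 40.8, 43.4 and 47.0 CPM in Cd226-/-. Those values overlapped (log2 fold change 0.082, 95% interval -0.068 to 0.23, adjusted p = 0.419).

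The ratio of Hspd1 to Hspe1 counts was 3.34, 3.23 and 3.04 in WT and 2.58, 2.59 and 2.29 in Cd226-/-. No Cd226-/- library reached the lowest WT value, and the mean log2 ratio differed by -0.37 (exact two-sided permutation p = 0.1, n = 3 per genotype). These are the genes that share the 18-base array printed above; of the 2 Hspd1 windows, only that of the start at 55087932 holds it. Copies and overlap affect both: 42.1% of the 50-base words of Hspd1 and 22.8% of those of Hspe1 occur in other annotated transcripts, and the 2 genes overlap by 96 bases. The pseudogene Hspd1-ps3 was counted 70, 75 and 83 times in WT and 56, 104 and 118 times in Cd226-/-. With these added, Hspd1 had a log2 fold change of -0.26 ± 0.056 (SE; adjusted p = 0.00117).

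Other mitochondrial chaperones and proteases were more often lower than higher: of 16 tested, 0 rose and 7 fell, beside 14.8% of all tested genes that fell. Clpp, the proteolytic subunit of the matrix ClpXP protease, fell from 24.1 ± 1.55 to 16.6 ± 0.929 CPM (SD, n = 3; log2 fold change -0.54 ± 0.093 (SE), adjusted p = 1.24e-04 by edgeR). Afg3l2 and Spg7, subunits of an inner membrane protease, fell by 0.35 and 0.26 on the log2 scale, and the J-domain protein Dnaja3 by 0.31. Grpel2, Hscb and Clpb also fell (log2 fold changes of -0.34, -0.43 and -0.32). Hspa9, the mitochondrial HSP70, was not called (252, 262 and 260 CPM in WT, and 251, 258 and 259 CPM in Cd226-/-; adjusted p = 0.901), nor was the mitochondrial HSP90 gene Trap1 (log2 fold change 0.022). With each library left out the number that fell was 5 to 8, beside 11.0% to 15.3% of all tested genes. With replicate 1 as the only Cd226-/- library the log2 fold change of Afg3l2 was -0.19.

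The cytosolic chaperonin showed little difference. Of 13 tested genes of the TRiC ring and of prefoldin, which passes it clients, 1 rose and 1 fell. Over all tested genes 16.1% rose and 14.8% fell. None of the 8 TRiC subunits was called. Pfdn5 rose 1.31-fold (72.2 ± 2.05 to 94.6 ± 6.56 CPM (SD, n = 3); adjusted p = 2.52e-05 by edgeR). Pfdn2 fell (log2 fold change -0.22, adjusted p = 0.0422) and missed the threshold without WT replicate 1 (0.0657), WT replicate 2 (0.107), WT replicate 3 (0.0719), Cd226-/- replicate 1 (0.0859) or Cd226-/- replicate 3 (0.144).

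The chaperone lists other than that of the endoplasmic reticulum held 96 further genes, of which 81 were tested. Of these, 8 rose, 13 fell and 60 were not called, with a median log2 fold change of -0.024. All tested genes had 30.9% called, 16.1% higher and 14.8% lower. As a pool, the falls lay near that share and the rises below it. The lists were unlike: 7 of the 13 falls were in the mitochondrial list (16 tested, 0 rose). The HSP90 co-chaperones held 3 of the 8 rises (17 tested, 0 fell). On scaling by library size without TMM, 5 rose and 21 fell, and all tested genes moved the same way (13.4% higher and 20.9% lower, with the median of all log2 fold changes at -0.058). Without Cd226-/- replicate 2 or replicate 3, 5 rose, beside 13.3% and 13.5% of all tested genes. Without WT replicate 1, WT replicate 2 or Cd226-/- replicate 3, 8 fell. The share of all tested genes that fell was 11.0% without WT replicate 1 and 11.2% without Cd226-/- replicate 3. Without WT replicate 2 that share was below 14.8% too. The chaperones of the endoplasmic reticulum, which serve secreted proteins and are controlled mainly by the unfolded protein response, stood beside these with 15 of 16 tested genes higher and 0 lower (median log2 fold change 1.07). The HSP70 of that compartment, Hspa5, had 829, 904 and 777 CPM in WT and 2414, 1677 and 1741 CPM in Cd226-/-, and its HSP90, Hsp90b1, rose 2.06-fold. Calr, Pdia3 and Dnajb11 rose 1.88-fold, 1.57-fold and 1.52-fold. The difference between the lists was not tested.

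**Figure D4:**
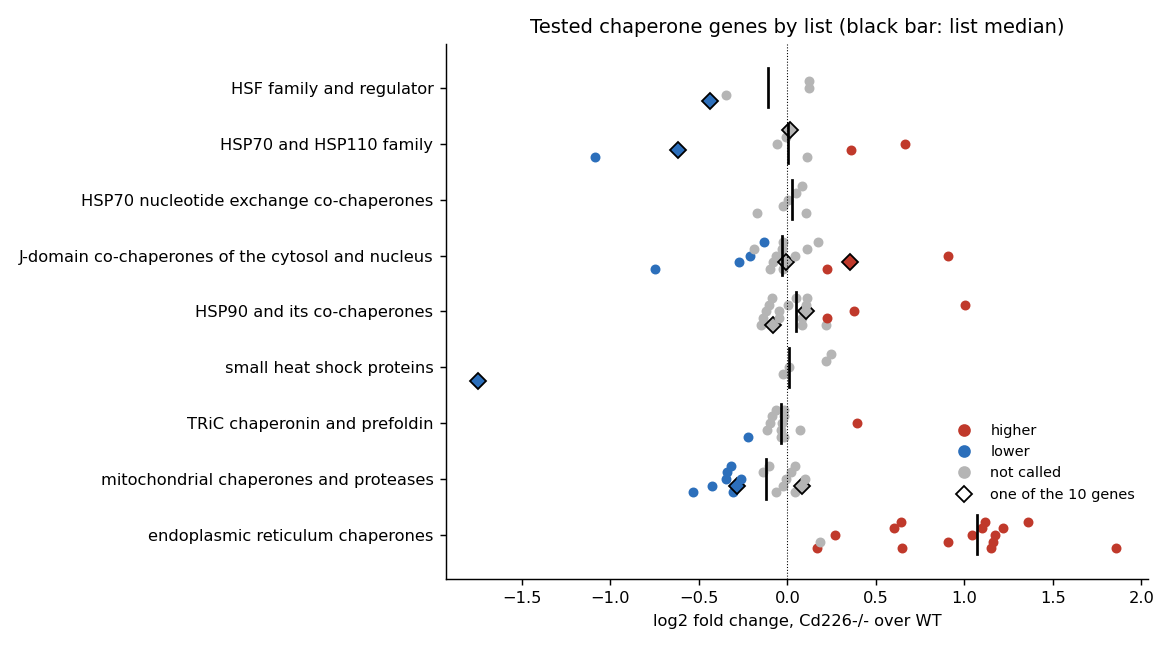
Log2 fold change of Cd226-/- over WT (x axis) for each tested gene of 9 chaperone lists (y axis); red is higher and blue lower at an adjusted p under 0.05, grey is not called, diamonds are the 10 heat shock genes and black bars the list medians. The endoplasmic reticulum list has its median at 1.07, and the medians of the other 8 lists lie between -0.12 and 0.050.

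The levels of the 10 genes were ordered per kb of annotated exon, on all annotated exons of a gene, which lowers the value of genes with rarely used exons. In WT the order began with Hsp90ab1 (312 ± 11.9 CPM per kb (SD, n = 3)), Hspa8 (195 ± 4.80), Hsp90aa1 (68.3 ± 0.263), Hspd1 (50.1 ± 3.13), Hspe1 (28.0 ± 1.61) and Hsph1 (17.2 ± 0.750 CPM per kb). Dnajb1, Cryab and Dnaja1 followed at 12.3 ± 0.887, 11.5 ± 1.86 and 11.4 ± 0.247 CPM per kb and did not differ beyond their spread, and Hsf1 was lowest at 4.11 ± 0.0979. In Cd226-/- the first 5 places were the same. Dnajb1 (15.8 ± 0.696) was then above Dnaja1 (11.4 ± 0.535) and Hsph1 (11.2 ± 0.238 CPM per kb), which did not differ beyond their spread, and Cryab (3.42 ± 0.160) was close to Hsf1 (3.03 ± 0.201 CPM per kb). By mean CPM the 10 genes spanned the tested range from the 40.0th percentile (Cryab) to the 99.1st (Hsp90ab1).

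**Figure D5:**
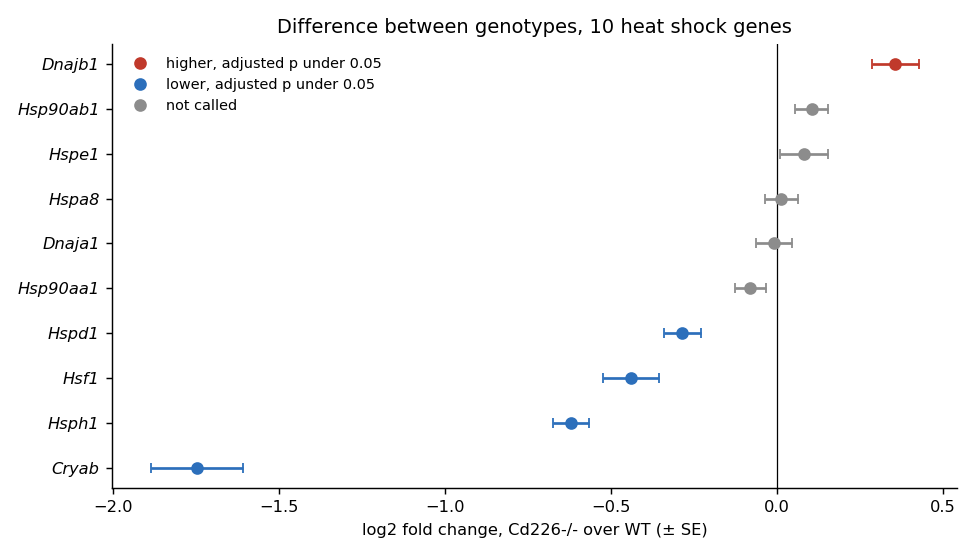
Log2 fold change of Cd226-/- over WT ± SE (x axis) for the 10 heat shock genes (y axis), sorted by value; blue is lower and red higher at an adjusted p under 0.05, and grey is not called. Values run from -1.75 for Cryab to 0.36 for Dnajb1, and the 5 genes not called lie between -0.081 and 0.10.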

How the data were processed

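HISAT2 and GRCm38 are named in the submitters' processing notes, where the roles are not stated; versions, counter, annotation and strand setting: not given in the sources used here. The deposited values are whole-number, unnormalized read counts by gene symbol, 1 column per library. Columns were matched to libraries by title, and 0 columns were left unused. Every pair of libraries of 1 genotype differed by more than counting noise (chi-square over degrees of freedom 2.17 to 7.76). 

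Counts were tested over all genes in edgeR 4.0.16 (R 4.3.3): filterByExpr by genotype, TMM scaling, and a two-sided robust quasi-likelihood F-test of genotype, without covariates. P-values of 13215 genes were adjusted together (Benjamini-Hochberg). A standard error is the absolute log2 fold change over the root of F, and 95% intervals use Student's t at the test's degrees of freedom. Limits on counts of 0 cover counting error only. The steps were tested on simulated data. Positions and promoter windows come from RefSeq and exon lengths and transcripts from GENCODE M21, both of GRCm38. Shared sequence was measured as the share of 50-base words found in transcripts of other genes; read length is not stated there. 

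The 10 genes, the 9 chaperone lists and the 8 marker lists were chosen with earlier results of these data known. Named were the 10 genes, Hspa1a, Hspa1b, Hspb1 and Hspa9, and up to 3 called genes of each list by p. All further genes were chosen with their values in view. Of the called genes that the rule gave, 1 is not reported here, though it stays in the counts of its list. Marker lists of T cells (7 genes, 6 tested) and neutrophils (10 genes, 2 tested) had 0 calls in edgeR, beside 30.9% of all tested genes. Of 6 erythroid markers 0 were tested, so none could be called. T-cell markers summed to 4.85 to 6.51 CPM in WT and 6.83 to 8.51 CPM in Cd226-/-, without overlap. Neutrophil and erythroid markers summed to 49.4 to 64.8 and 0 to 0.109 CPM per library. Alternatives were DESeq2 (1.42.0) size factors and Wald test, scaling by library size, no filter or one at a mean of 5 CPM, limma-voom (3.58.1), each library left out, a replicate block, replicate 1 as the only Cd226-/- library (the lone library is then assumed to vary like the WT libraries), an adjusted p under 0.01 and, for ratios, a pseudocount of 1. Added after seeing the data were counts summed with pseudogene copies.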

Additional observations from a re-analysis of the deposited data

How the results depend on the processing

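Hsph1, Cryab, Hspd1 and Dnajb1 kept their direction and their call under each of the 15 alternatives run for single genes, and Hsf1 under 14, missing the threshold with replicate 1 as the only Cd226-/- library. The log2 fold change ranged over these from -0.67 to -0.59 for Hsph1, from -1.87 to -1.65 for Cryab, from -0.34 to -0.24 for Hspd1, from 0.30 to 0.43 for Dnajb1 and from -0.50 to -0.33 for Hsf1. Of the 10 genes, the number called higher was 1 to 2 with each library left out (2 without Cd226-/- replicate 1, where Hsp90ab1 was added), and the number called lower was 3 to 5 over all alternatives. Genes that were not called changed sign: Hspa8 was at -0.040 scaled by library size, -0.018 with replicate 1 alone and -0.0097 to 0.030 with each library left out; Dnaja1 was at 0.0017 and Hspa9 at 0.0020 with the filter at 5 CPM, and at -0.046 to 0.014 and -0.028 to 0.0036 with each library left out; Hspe1 was at -0.013 with replicate 1 alone, and Hspb1 at -0.16 to 0.45 with each library left out. Fkbp4 missed it scaled by library size (adjusted p = 0.0827) and with replicate 1 alone (0.608), Dnajb2 by DESeq2 (0.0502) and with replicate 1 alone (0.292), and Pfdn2 by DESeq2 (0.0890) and with replicate 1 alone (0.131). Further chaperone genes outside the endoplasmic reticulum numbered 5 higher and 21 lower scaled by library size, 8 lower by DESeq2's Wald test, 6 lower with replicate 1 alone, 5 higher and 7 lower at an adjusted p under 0.01, and 5 to 8 higher and 8 to 13 lower with each library left out. By list and over all alternatives, J-domain genes had 1 to 2 higher and 1 to 7 lower, HSP90 co-chaperones 1 to 4 higher and 0 to 2 lower, TRiC and prefoldin 0 to 3 lower, mitochondrial genes 3 to 8 lower, the HSF list and the exchange co-chaperones 0 to 1 higher, and the endoplasmic reticulum list 13 to 15 higher. The differences in log2 ratio ranged from -0.22 to -0.17 (Hsp90aa1 to Hsp90ab1), from -0.65 to -0.61 (Hsph1 to Hspa8) and from -0.40 to -0.31 (Hspd1 to Hspe1) with each library left out. The cause of these changes was not tested. Calls over all tested genes changed as well, from 30.9% in the main fit to between 24.1% and 32.4% with each library left out. At an adjusted p under 0.01, 11.1% of all tested genes were higher and 8.83% lower, against 16.1% and 14.8% in the main fit. By DESeq2's Wald test 1588 of 13214 genes were lower, against 1956 of 13215 in the main fit.

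Replicate numbers shared by the genotypes were used as a block in 1 alternative: same-numbered libraries did not deviate together (correlations of 0.0105, -0.0128 and 0.0151 over 13215 genes), so the numbers are not taken as pairs. With the replicate block 4137 genes were called in place of 4086, the log2 fold changes of Hsph1, Cryab and Hsf1 were -0.62, -1.74 and -0.44, and no call on the 10 genes changed. Counts were few for Hspa1a and Hspa1b (0 to 8 per library) and for Hspb1 (14 to 35 per library).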

Other observations

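Fkbp5, a glucocorticoid-induced co-chaperone of HSP90, was below the filter on low counts and was not tested. Its WT counts were 2, 2 and 1, and replicates 1 to 3 of Cd226-/- held 5, 17 and 35. The high libraries were Cd226-/- replicates 2 and 3, the same libraries in which hepatocyte markers summed to 23.1 and 24.4 CPM. The part of the hepatocyte transcripts in these values was not tested.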
